A study of Mus musculus with 8 samples.

Results

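Gene expression in clone 18, a stable A20 transfectant carrying membrane IgE, was set against untransfected A20 cells. Each line was measured on 2 arrays, so 4 of the 8 arrays of the series carry the comparison. They were chosen by their titles. The other 4 arrays hold a second IgE transfectant, clone 41, and a transfectant with membrane IgM, with 2 arrays per line. A20 is a mouse B lymphoma line of mature B cell type, and the 4 lines were kept in RPMI at 500000 cells/mL, with beta-mercaptoethanol at 50 µM and serum at 10%. Per the labels, 1 µg of total RNA was taken for each array. Clone 18 is 1 clone, so what belongs to the clone and what belongs to IgE cannot be told apart in this comparison. Whether the replicate arrays of a line stem from separate cultures is not stated in the labels, so the p-values reflect array-to-array spread alone, which may be technical. Each line fills a column of the 1 slide, and a difference between columns cannot be told apart from one between lines.

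A B cell carries its immunoglobulin on the membrane together with the signalling chains Cd79a and Cd79b, and this B cell receptor relays antigen binding through kinases, adaptors and calcium. Phosphatases and ubiquitin ligases of the Cbl family restrain the signal. B cells that switch to IgE are known in mice for a short stay in germinal centres and for a tendency to become plasma cells. The series set membrane IgE transfectants against IgM-bearing and untransfected cells.

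Levels are log2 values of the signal divided by the 75th percentile of all signals on that array. That percentile was 489.6 and 493.1 intensity units on the clone 18 arrays, against 664 and 589.7 on the untransfected arrays. Of the spots on an array, 53.1% and 49.7% were well above background in clone 18, against 51.1% and 51.9% in untransfected cells. The 2 clone 18 arrays agreed more closely with each other than the 2 untransfected arrays did. The SD of the log2 difference between arrays over 17358 genes was 0.323 in clone 18 and 0.647 in untransfected cells. All 10 B cell markers were well above background on all 4 arrays. Their summed linear level, in units of the 75th percentile, was 491 and 554 in clone 18, against 538 and 477 in untransfected cells. Of the T cell markers, 7 of 11 passed the filter on dim probes, which asks for 2 arrays of some line well above background, with sums of 6.14 and 4.92 in clone 18 and 4.74 and 6.42 in untransfected cells. Of the myeloid markers, 7 of 10 were tested, with sums of 212 and 194 in clone 18 and 162 and 180 in untransfected cells. Of the stromal and erythroid markers 6 of 9 were tested, with sums of 19 and 17.9 in clone 18 and 11.8 and 5.59 in untransfected cells, and of the mast cell markers 1 of 6. Well above background on all 4 arrays were 5 of the 7 tested T cell, all 7 tested myeloid and 5 of the 6 tested stromal and erythroid markers. Cd3d, Cd8a, Thy1, Cd14, Lyz2, Fcer1a, Kit and Col1a1 were among the markers that did not pass the filter in any line. They are examples of the untested markers. Most T cell, myeloid, and stromal and erythroid markers did pass, so these examples do not show that such transcripts were absent. In bulk RNA, fewer cells with a transcript and less of it per cell cannot be told apart.

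The heavy chain probes bear most directly on the transfected genes. The probe at the position of the epsilon constant gene, annotated only as a predicted gene (mm9 chromosome 12, 114509504 to 114509563), read 0.48 and 0.36 in clone 18, against -1.21 and -0.31 in untransfected cells. Both clone 18 arrays lay above both untransfected arrays, but the difference of 1.19 ± 0.41 (SE) did not pass (adjusted p = 0.134). The same probe read 0.09 and 1.02 in IgM cells and -0.13 and 0.40 in clone 41. Clone 18 differed from IgM cells by -0.13 (adjusted p = 0.871). The mu probe (114659630 to 114659689) read 3.65 and 3.80 in clone 18, against 3.97 and 4.29 in untransfected cells, a difference of -0.41 ± 0.19 (adjusted p = 0.229). A probe placed between the gamma 1 probes and the delta probe (114597942 to 114598001) is annotated only as expressed sequence AI324046. Among the probes placed at the constant genes, it was the only one called. It read 4.01 and 3.96 in clone 18, against 1.39 and 2.33 in untransfected cells, and was 2.12 ± 0.31 higher (adjusted p = 0.0101). A probe annotated as Igh-VJ558, placed among the variable genes (116610609 to 116610667), differed more. It read 1.59 and 1.68 in clone 18, -0.17 and 0.68 in clone 41 and 2.27 and 2.51 in IgM cells, against -3.30 and -7.06 in untransfected cells. Clone 18 was 6.81 higher than untransfected cells (113-fold, adjusted p = 0.0122, and 0.0909 and 0.0821 without clone 18 replicate 1 or 2). The gamma 2a probes, which match the IgG heavy chain that A20 makes itself, were at or near saturation in both lines. The files do not state whether the probe at the epsilon position matches the transfected sequence, so it does not check the label.

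Of 19973 genes tested, 1536 differed between clone 18 and untransfected cells at an adjusted p under 0.05 and at least 2-fold, 667 higher and 869 lower. That is 7.69% of all genes, 3.34% higher and 4.35% lower. For 147 of the higher genes the untransfected arrays were not well above background, and for 261 of the lower genes the clone 18 arrays were not, so these have only bounds. A further 13 called genes were above background in neither line. For 1168 of the called genes (76%), each clone 18 array differed from each untransfected array by at least 2-fold in the same direction. That held for 6.7% of all genes. The count rested on both clone 18 arrays: without replicate 1 of clone 18 it was 580 and without replicate 2 it was 676, while without untransfected replicate 1 it was 2539.

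**Figure D1:**
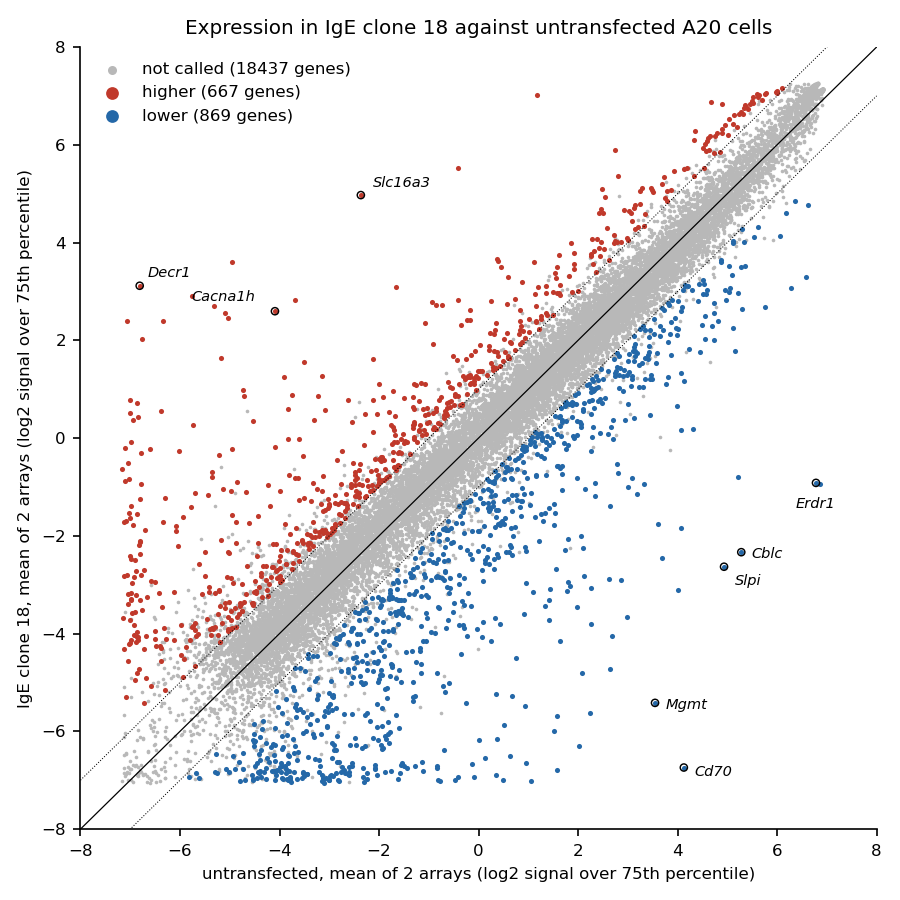
Mean log2 level, relative to the 75th percentile of each array, in IgE clone 18 (vertical axis) against untransfected cells (horizontal axis), one point per gene, n = 2 arrays per line. Solid line, equal levels; dotted lines, 2-fold. The 667 genes called higher (red) and 869 called lower (blue) include a column at the left and a row at the bottom, where one line was not above background; Slc16a3, Cacna1h and Decr1 stand far above the diagonal and Cblc, Slpi, Mgmt and Cd70 far below it.

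Among genes well above background and not saturated on all 4 arrays, the higher genes set furthest apart between the lines encode a lactate exporter, calcium channel subunits and proteins of mitochondria, cilia and the cell cycle. Slc16a3, the lactate exporter MCT4 (mm9 chromosome 11, 120820023 to 120820082), read 5.22 and 4.72 in clone 18, against -2.86 and -1.87 in untransfected cells, and was 162-fold higher (log2 difference 7.34 ± 0.63 SE, adjusted p = 0.00111). Its second probe, which overlaps the first (120820030 to 120820089), gave 7.27. Cacna1h, a pore subunit of T-type calcium channels (chromosome 17, 25511235 to 25511294), read 2.57 and 2.62 in clone 18, against -4.34 and -3.84 in untransfected cells, 103-fold higher (6.69 ± 0.30, adjusted p = 7.42e-05), and both its other probes were called higher. In each of these genes the gap between the lines was many times the gap between the arrays of a line.

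4930583H14Rik, now named Mgarp, a mitochondrial protein, read 5.42 and 5.64 in clone 18, against -0.78 and -0.04 in untransfected cells, 61.5-fold higher (adjusted p = 0.00147). 1700009P17Rik (Cfap126), a protein of motile cilia, was 36-fold higher (adjusted p = 0.000134) and Rhox2h, an X-linked homeobox gene, 33.3-fold (adjusted p = 0.00383). Spdya, an activator of cyclin-dependent kinases, read 1.28 and 1.27 in clone 18, against -3.57 and -2.71 in untransfected cells (21.4-fold, adjusted p = 0.00107). Ppp2r2c, a regulatory subunit of protein phosphatase 2A, was 16.9-fold higher, Basp1, a membrane-linked cytoskeletal protein, 13.3-fold, Cacng7, a calcium channel gamma subunit, 12.8-fold, and the zinc finger gene Zfp358 12.6-fold (adjusted p 0.000193 to 0.00161). Of the 12 highest genes, 2 have no described role here: 9630013D21Rik was 25-fold higher (adjusted p = 0.000404), and 1600014C23Rik was 21.6-fold higher (adjusted p = 0.0144) but lost its call without clone 18 replicate 1 (adjusted p = 0.102).

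A second set was well measured in clone 18 and not above background on either untransfected array, so its folds are bounds. Decr1, an enzyme that mitochondria need to oxidise unsaturated fatty acids, read 3.04 and 3.19 in clone 18, against -6.74 and -6.88 in untransfected cells, and was at least 247-fold higher (adjusted p = 3.36e-05). Bdh1, the mitochondrial enzyme that interconverts the ketone bodies, read 1.98 and 2.06 in clone 18, against -7.01 and -6.53 (at least 116-fold, adjusted p = 0.000134), and both its other probes were called as well. The cholesterol uptake protein gene Npc1l1 and the armadillo repeat gene Armcx2 were each at least 149-fold higher (adjusted p 0.000141 and 1.99e-05). Phlda3, a target of p53, was at least 48.6-fold higher and the sodium-proton exchanger gene Slc9a4 at least 46.6-fold (adjusted p 0.000546 and 1.51e-05). In all 6 genes the 2 clone 18 arrays agreed within 2-fold.

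Decr1 and Bdh1 were the only called members among 28 tested enzymes of fatty acid oxidation and ketone bodies (7.14% called, against 7.69% of all genes, median log2 difference -0.12, against 0.07 over all genes). Npc1l1 was the only one called among 36 genes of cholesterol and lipid synthesis.

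Under the same limit, the lower genes set furthest apart encode a ubiquitin ligase, a protease inhibitor, a phosphatase and surface proteins of lymphocytes. Cblc, a Cbl family ubiquitin ligase (chromosome 7, 20365069 to 20365128), read -2.38 and -2.29 in clone 18, against 4.98 and 5.58 in untransfected cells, 196-fold lower (log2 difference -7.61 ± 0.24, adjusted p = 2.18e-05). Its second probe gave -6.99. Slpi, a secreted protease inhibitor (chromosome 2, 164179849 to 164179908), read -2.73 and -2.54 in clone 18, against 5.31 and 4.56 in untransfected cells (189-fold lower, adjusted p = 7.42e-05). Gabrr1, a GABA receptor subunit, was 137-fold lower (adjusted p = 7.42e-05). Ptpn7, a tyrosine phosphatase of blood cells that acts on MAP kinases, read -3.54 and -3.80 in clone 18, against 3.16 and 2.81 in untransfected cells (101-fold lower, adjusted p = 2.08e-05). By the rule that chose them, in all 4 genes both clone 18 arrays lay far below both untransfected arrays. The arrays of each line lay within 2-fold of each other.

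Other lymphocyte genes among the 12 lowest were Sash3, a signalling adaptor (40.8-fold lower, adjusted p = 7.42e-05), Gpr132, a receptor for lipids and acid (45.8-fold, adjusted p = 0.000845), and Hnrpll (Hnrnpll), a splicing regulator that shapes the Ptprc transcript (42.9-fold, adjusted p = 0.000546). Casp4, the inflammatory caspase that senses bacterial lipopolysaccharide, read -2.89 and -2.94 in clone 18, against 1.92 and 3.80 in untransfected cells (54.7-fold lower, adjusted p = 0.00336). Gm525 was 106-fold lower (adjusted p = 0.000445), the surface protein gene Cd99 70.5-fold (adjusted p = 7.42e-05) and the annexin gene Anxa10 64.7-fold (adjusted p = 0.0009). Itga6, the laminin-binding integrin chain, read -1.96 and -1.74 in clone 18, against 4.97 and 3.15 in untransfected cells (60.2-fold lower, adjusted p = 0.00143). The second Itga6 probe was not called (log2 difference -0.61, adjusted p = 0.2), so the 2 probes of this gene disagree in size.

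Genes measured in untransfected cells and not above background in clone 18 also gave bounds. Cd70, a TNF family ligand, read -6.91 and -6.57 in clone 18, against 5.40 and 2.85 in untransfected cells, and was at least 467-fold lower (adjusted p = 0.000449). The DNA repair gene Mgmt read -4.86 and -5.97 in clone 18, against 3.08 and 4.02 in untransfected cells (at least 313-fold lower, adjusted p = 0.000379). Zfpm1, a cofactor of GATA transcription factors, was at least 160-fold lower (adjusted p = 1.53e-05), Ccdc113 at least 108-fold (adjusted p = 0.000845), and the adhesion scaffold gene Nedd9 at least 80.1-fold (adjusted p = 0.000151). Klhl13, an adaptor of a ubiquitin ligase, was at least 80.2-fold lower (adjusted p = 0.00618), and lost its call without clone 18 replicate 1 (adjusted p = 0.0638).

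**Figure D2:**
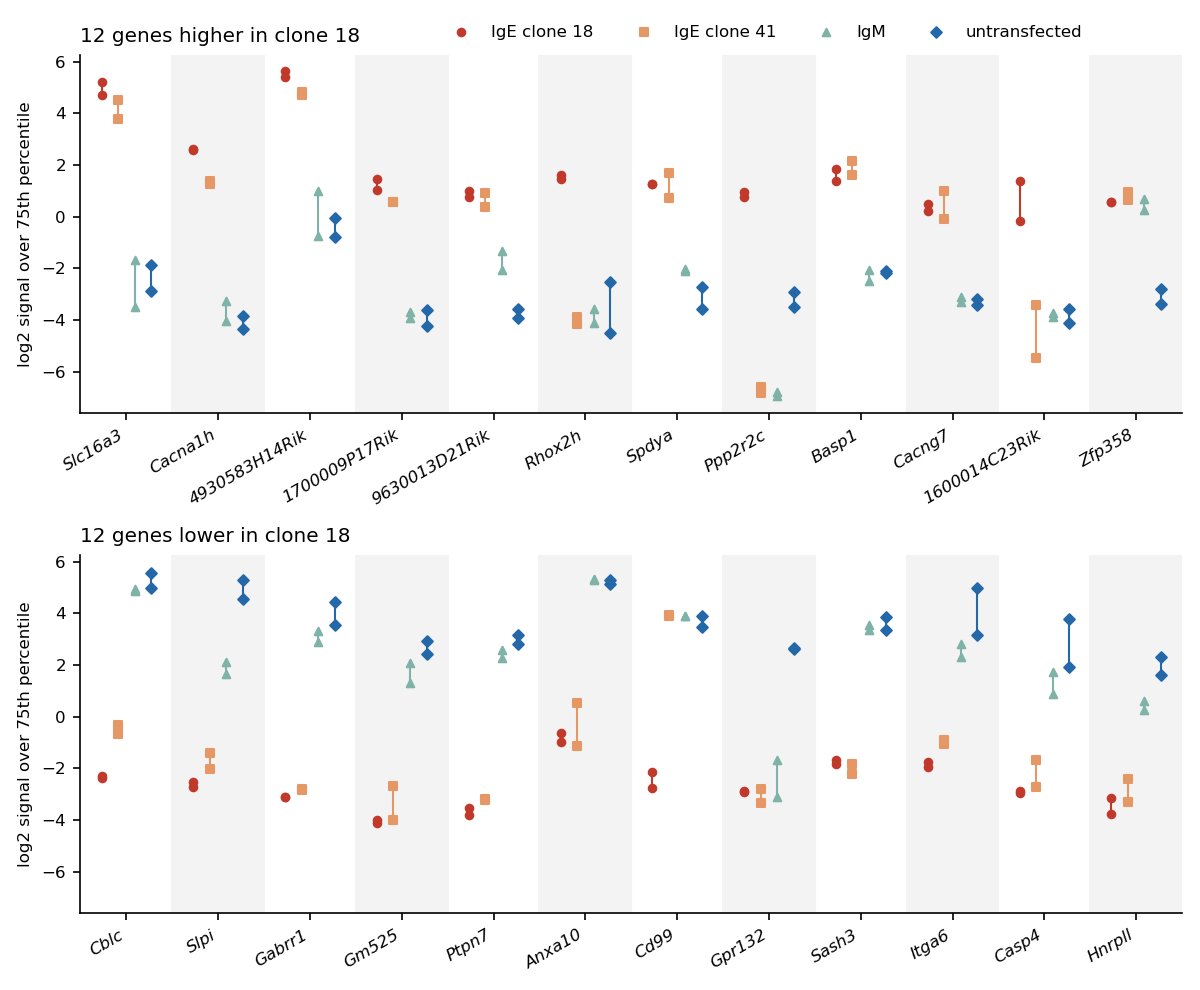
Log2 signal over the 75th percentile on each array for the 12 higher and 12 lower genes with the largest smallest difference between a clone 18 and an untransfected array, among genes well above background and not saturated on all 4 arrays; each line joins the 2 arrays of a cell line. Clone 18 lies apart from untransfected cells in every gene shown, which the choice of genes requires. In Rhox2h, Ppp2r2c, Cd99 and 1600014C23Rik clone 41 lies apart from clone 18, while in Zfp358 and Gpr132 IgM cells lie near both IgE clones.

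Large changes were checked for agreement between the untransfected arrays. At least 8-fold differences were called in 355 genes (1.78% of those tested), 124 higher and 231 lower. The untransfected arrays lay within 2-fold of each other in 251 of them (70.7%), against 87.3% of all genes, and were 2-fold or more apart in 103; the remaining gene had a value on 1 untransfected array only. The clone 18 arrays lay within 2-fold of each other in 327. The median gap between arrays in these genes was 0.27 in clone 18 and 0.60 in untransfected cells, against 0.21 and 0.36 over all genes. In 254 of the 355 genes every clone 18 array differed at least 8-fold from every untransfected array. In 354 the difference was at least 2-fold for every pair of arrays.

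The largest gaps among large changes, in genes with a current RefSeq symbol, were in Slc24a3, Inhbe, 2810468N07Rik (Cerox1), Ptov1, Klhl13 and Cd9. The Igh-VJ558 probe, which has none, had a larger gap (3.75) than Slc24a3 (3.53). Slc24a3, a potassium-dependent sodium-calcium exchanger, read 2.78 and 2.85 in clone 18, against -1.93 and -5.45 in untransfected cells, where replicate 2 was not well above background. Its fitted difference of 6.50 was 4.74 with untransfected replicate 1 alone and 8.27 with replicate 2 alone (adjusted p = 0.0122, and 0.0916 and 0.0821 without clone 18 replicate 1 or 2). Inhbe, an inhibin subunit gene induced under cell stress, read -3.53 and -3.85 in clone 18, against -1.36 and 2.01 in untransfected cells (adjusted p = 0.0498, and 0.0698 with the replicate number as a block). Klhl13 read -6.13 and -5.25 in clone 18, against 3.02 and 0.14 in untransfected cells. The tetraspanin gene Cd9 read -4.47 and -4.77 in clone 18, against 0.25 and -2.57 in untransfected cells (adjusted p = 0.0431). Inhbe, 2810468N07Rik, Ptov1 and Cd9 each lost the call without either clone 18 array (adjusted p 0.119 to 0.212). In these genes both untransfected arrays lay on the same side of both clone 18 arrays. The arrays of the 2 lines overlapped in 0 of the called genes, so this order says nothing further here.

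**Figure D3:**
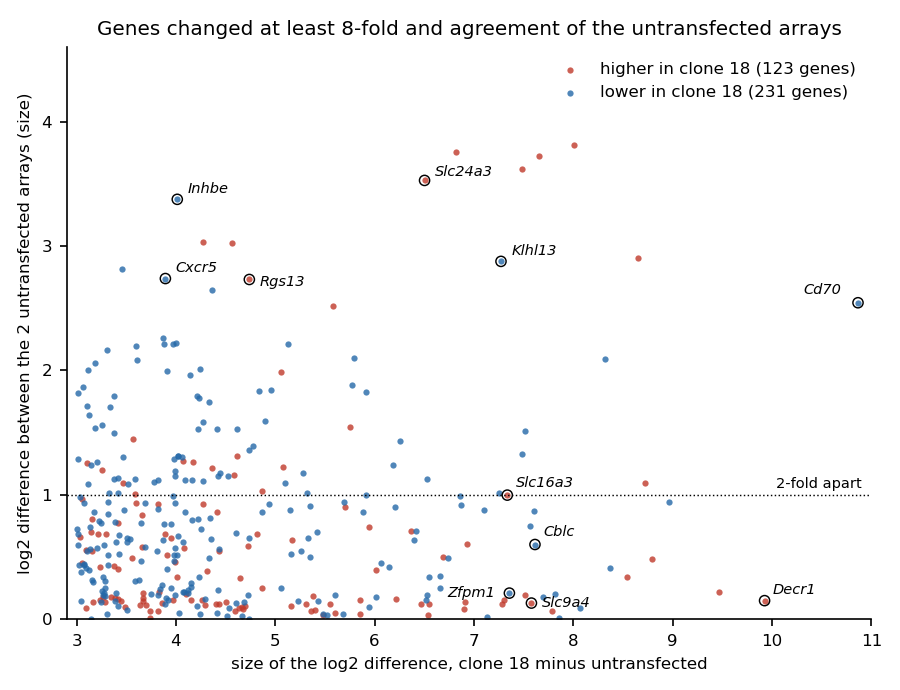
Size of the log2 difference between clone 18 and untransfected cells (horizontal axis) against the log2 gap between the 2 untransfected arrays (vertical axis), for 354 genes called at least 8-fold with values on both untransfected arrays; the dotted line marks arrays 2-fold apart. Decr1, Slc9a4, Zfpm1 and Cblc lie below the line and Slc24a3, Inhbe, Klhl13, Cd70, Cxcr5 and Rgs13 above it.

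Over all genes, the untransfected arrays were 2-fold or more apart in 2532 (12.7%) and the clone 18 arrays in 497. Among genes chosen after their values were seen, Ddit3 and Trib3 were higher on untransfected replicate 2. Ddit3, a stress-induced transcription factor, read -0.23 and -0.13 in clone 18, against 0.30 and 4.31 in untransfected cells. Trib3, a pseudokinase it induces, read 1.29 and 1.84 in clone 18, against 3.14 and 6.15. Neither passed (adjusted p 0.224 and 0.107). Over 36 genes of cholesterol and lipid synthesis, untransfected replicate 1 lay above replicate 2 by a median of 1.46 on the log2 scale. Hmgcs1, an early enzyme of the pathway, read 6.64 and 6.67 in clone 18, against 6.46 and 4.46 in untransfected cells. The 36 genes of that list had a median log2 difference of 0.84, which was 0.08 against untransfected replicate 1 and 1.53 against replicate 2. With all arrays 1 was called higher. Without untransfected replicate 1 it was 22, and without replicate 2 it was 1. For these genes the comparison depended on which untransfected array was used.

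Several genes of the B cell receptor and its co-receptors were lower. Of 38 tested, 6 were called lower (15.8%) and 1 higher (2.63%), against 4.35% and 3.34% of all genes, and 31 did not pass. The list's median was -0.06, against 0.07 over all genes. Beside Cblc, the kinase gene Fyn read -0.08 and 0.03 in clone 18, against 2.16 and 3.24 in untransfected cells (6.59-fold lower, adjusted p = 0.00466). The complement receptor gene Cr2 read 1.52 and 1.71 in clone 18, against 3.78 and 3.05 in untransfected cells (3.48-fold lower, adjusted p = 0.0168). Cd79a, a signalling chain of the receptor, was 2.17-fold lower (adjusted p = 0.0175), and its partner Cd79b differed by 0.51 ± 0.19 (adjusted p = 0.151). The calls of Cr2 and Cd79a ended without either clone 18 array (adjusted p 0.0732 to 0.131). The inhibitory receptor gene Fcgr2b was 2.25-fold higher (adjusted p = 0.0133, and 0.0692 and 0.0901 without clone 18 replicate 1 or 2). Lower calls numbered 3 without replicate 1 of clone 18 and 3 without replicate 2.

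B cell identity genes went both ways. Of 35 genes of mature or germinal centre B cells, 3 were higher (8.57%) and 5 lower (14.3%), against 3.34% and 4.35% of all genes. The inhibitory receptor gene Btla read 2.61 and 2.84 in clone 18, against -0.20 and -1.29 in untransfected cells (11.1-fold higher, adjusted p = 0.0021). Rgs13, a regulator of G protein signalling found in germinal centre B cells, read 2.98 and 3.19 in clone 18, against -0.29 and -3.02 in untransfected cells (26.7-fold higher, adjusted p = 0.0165). The follicle-homing chemokine receptor gene Cxcr5 read 0.01 and 0.33 in clone 18, against 5.44 and 2.70 in untransfected cells (14.9-fold lower, adjusted p = 0.027), and Tnfrsf13c, the receptor for the survival factor BAFF, was 5.71-fold lower (adjusted p = 0.0111). Rgs13, Cxcr5 and Tnfrsf13c lost their calls without either clone 18 array (adjusted p 0.0683 to 0.171), and the list then kept 0 lower calls. The transcription factor genes Pax5 (0.80, adjusted p = 0.142) and Bcl6 (0.28, adjusted p = 0.338, saturated on 1 array) did not pass.

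Of 19 plasma cell genes, 5 were lower (26.3%) and 0 higher. Irf4, a transcription factor that plasma cells need, read -1.44 and -1.32 in clone 18, against 3.29 and 1.98 in untransfected cells (16.2-fold lower, adjusted p = 0.0027). Prdm1, the factor that drives plasma cell formation, differed by 0.10 (adjusted p = 0.949), Xbp1 by -0.63 (adjusted p = 0.134) and Sdc1, the plasma cell surface protein CD138, by -0.54 (adjusted p = 0.397). The lower count was 1 without clone 18 replicate 1 and 3 without replicate 2. The unfolded protein response list, which serves secretion, had 2 lower and 0 higher of 32 (6.25% lower, against 4.35% of all genes). The lower count was 9 without untransfected replicate 1 and 0 without either clone 18 array.

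Genes of the cell surface and of adhesion were among those called lower. Of 20 integrin and adhesion genes, 7 were lower (35%) and 0 higher, against 4.35% and 3.34% of all genes, with a median of -0.34. Beside Itga6 and Cd9, the integrin chain genes Itga4 (5.27-fold lower, adjusted p = 0.0109) and Itgb3 (3.96-fold, adjusted p = 0.00593), the tetraspanin gene Cd82 (2.88-fold, adjusted p = 0.0147) and the adhesion receptor genes Cd97 (Adgre5; 8.02-fold, adjusted p = 0.00295) and Emr1 (Adgre1; 40.3-fold, adjusted p = 0.00198) were lower. Itgb1, Itgb2 and Itgal, the more widely used chains, differed by 0.09, 0.27 and 0.15 and were not called. Lower calls numbered 3 and 4 without clone 18 replicate 1 and 2. Emr1 is also a macrophage marker, and among the myeloid markers Cd68 was 3.58-fold higher (adjusted p = 0.00453).

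Of 23 TNF superfamily ligands and receptors, 5 were lower (21.7%) and 0 higher, with a median of -0.73. They were Cd70, the co-stimulatory ligand gene Tnfsf9 (10.1-fold, adjusted p = 0.0102), Tnfrsf13c, the BAFF gene Tnfsf13b and the death receptor gene Fas (2.96-fold, adjusted p = 0.0134). Without either clone 18 array 1 was called. Of 33 cytokine receptor and STAT genes, 5 were lower (15.2%) and 2 higher (6.06%), against 4.35% and 3.34% of all genes. Il2rg, the common gamma chain of interleukin receptors, read -2.19 and -2.32 in clone 18, against 2.43 and 1.78 in untransfected cells (20.5-fold lower, adjusted p = 0.000328), and the beta chain gene Csf2rb was 7-fold lower (adjusted p = 0.000296). Stat5b, a transcription factor downstream of these receptors, was 3.27-fold higher (adjusted p = 0.00153) and the erythropoietin receptor gene Epor 7.15-fold higher (adjusted p = 0.00347). The tyrosine phosphatase list had 4 lower (13.8%) and 0 higher of 29, led by Ptpn7. Of 24 immediate early and activation genes, 1 was lower (4.17%) and 2 higher (8.33%). Cd69, an early activation marker, was 22.9-fold lower (adjusted p = 0.00122). The antiproliferative gene Btg2 was 3.65-fold higher (adjusted p = 0.0195) and the transcription factor gene Klf4 2.51-fold (adjusted p = 0.0394). Both lost the call without clone 18 replicate 1 or 2 (adjusted p 0.108 to 0.18), Klf4 also without untransfected replicate 2 (adjusted p = 0.075).

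Genes of innate signalling were also among those called lower. Over all genes, 4.35% were called lower and 3.34% higher. Of 27 type I interferon response genes, 6 were lower (22.2%) and 0 higher, with a median of -0.35. Usp18, which damps interferon signalling, read -1.67 and -1.74 in clone 18, against 1.50 and 1.07 in untransfected cells (7.95-fold lower, adjusted p = 0.00133). Xaf1 was 5.27-fold lower (adjusted p = 0.0019), Trim30a 4.49-fold (adjusted p = 0.00695) and Ifih1, a sensor of viral RNA, 2.5-fold (adjusted p = 0.00461). The list's median was 0 against untransfected replicate 1 and -0.59 against replicate 2, and 3 were called without either clone 18 array. Irf7 (0.64) and Isg15 (-0.28), central genes of the response, were not called. Of 17 NF-kB targets, 4 were lower and 0 higher, among them Bcl3 (9.88-fold, adjusted p = 0.0155) and the chemokine gene Ccl5 (6.44-fold, adjusted p = 0.0093), and 0 passed without either clone 18 array. Of 26 genes of MHC antigen presentation and co-stimulation, 3 were lower and 1 higher, with 2 lower and 0 higher without either clone 18 array. Nlrc5, the transactivator of MHC class I genes, fell by 4.33 on the log2 scale (adjusted p = 0.000404) and B2m, the class I light chain, saturated in untransfected cells, was at least 3.6-fold lower (adjusted p = 0.0034). Tapbp, the gene of tapasin, which loads peptides onto class I, was the higher one (2.19-fold, adjusted p = 0.0141, and 0.103 and 0.0822 without clone 18 replicate 1 or 2), and it was under 2-fold without untransfected replicate 2.

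Interferon response promoters hold a motif bound by STAT and IRF complexes, the interferon-stimulated response element, here searched on both strands as GAAA, any 2 bases and GAAA again. It was present in 3.44% of 32851 windows of 300 bases around gene starts, in 11 of 19 genes of the list with a window, and in 3 of the 4 lower genes with one. The window of Ifih1 (GRCm38.p6, chr2:62646206-62646505, minus strand, from RefSeq) is shown as an example, with the motif in capitals shortly after the start of the gene.

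Ifih1: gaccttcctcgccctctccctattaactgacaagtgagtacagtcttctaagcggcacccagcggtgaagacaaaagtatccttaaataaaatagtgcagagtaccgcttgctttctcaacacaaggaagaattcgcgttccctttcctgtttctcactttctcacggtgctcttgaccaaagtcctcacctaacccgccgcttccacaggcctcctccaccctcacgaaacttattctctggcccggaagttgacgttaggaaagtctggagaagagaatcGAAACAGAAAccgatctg

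Some genes of glycolysis, lactate export and hypoxia were higher. Of 29 tested, 6 were higher (20.7%) and 1 lower (3.45%), against 3.34% and 4.35% of all genes. The list's median was 0.63, against 0.07 over all genes. These genes turn glucose into lactate or answer to low oxygen. Beside Slc16a3, the glycolytic enzyme gene Tpi1 read 6.91 and 6.74 in clone 18, against 5.27 and 4.51 in untransfected cells (3.83-fold higher, adjusted p = 0.0123). Eno2, another glycolytic enzyme, read 3.25 and 2.40 in clone 18, against -0.62 and -0.20 in untransfected cells (9.42-fold, adjusted p = 0.00364). Ankrd37, a hypoxia-induced gene, was 9.31-fold higher (adjusted p = 0.0113), Ddit4, an inhibitor of mTOR, 5.83-fold (adjusted p = 0.0169) and Bnip3, which targets mitochondria for removal, 5.29-fold (adjusted p = 0.0408). Ndrg1, also induced by hypoxia in many cells, was 7.86-fold lower (adjusted p = 0.0119). In the 6 higher genes both clone 18 arrays lay above both untransfected arrays, which held for every called higher gene with values on all 4 arrays.

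Without clone 18 replicate 1 or 2, 2 and 3 of these genes were called higher, and Bnip3 lost its call without any single one of the 4 arrays (adjusted p 0.0801 to 0.237). Saturation on at least 1 of the 8 arrays affected 9 of the 29 genes, among them Gapdh and Ldha, saturated on all 8, for which no difference can be given. Hif1a, the hypoxia-induced transcription factor subunit, differed by -0.73 (adjusted p = 0.0973) and Vegfa, a growth factor it controls, by -0.44 (adjusted p = 0.71). Tpi1 and Eno2 lie near each other in a stretch of chromosome 6 that was higher as a whole, described further on.

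Hypoxia response elements contain the letters ACGTG. On either strand these occurred in 19.6% of the 32851 windows, in 19 of 27 genes of the list with a window, and in 4 of the 6 higher genes: Slc16a3, Ankrd37, Bnip3 and Ddit4. Tpi1 and Eno2 held none in their windows. The windows of the 2 most changed of the 4 are shown with the motif in capitals (Slc16a3, chr11:120948817-120949116, plus strand; Ankrd37, chr8:45999801-46000100, minus strand; GRCm38.p6, from RefSeq). Each holds 2 copies, and in Slc16a3 both lie close to the start of the gene.

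Slc16a3: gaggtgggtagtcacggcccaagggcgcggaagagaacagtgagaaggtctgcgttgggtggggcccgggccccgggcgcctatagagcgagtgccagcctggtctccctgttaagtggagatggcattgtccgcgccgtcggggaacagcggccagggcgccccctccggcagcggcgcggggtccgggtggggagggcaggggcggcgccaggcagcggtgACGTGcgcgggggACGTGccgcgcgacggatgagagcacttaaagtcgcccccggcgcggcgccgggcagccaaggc
Ankrd37: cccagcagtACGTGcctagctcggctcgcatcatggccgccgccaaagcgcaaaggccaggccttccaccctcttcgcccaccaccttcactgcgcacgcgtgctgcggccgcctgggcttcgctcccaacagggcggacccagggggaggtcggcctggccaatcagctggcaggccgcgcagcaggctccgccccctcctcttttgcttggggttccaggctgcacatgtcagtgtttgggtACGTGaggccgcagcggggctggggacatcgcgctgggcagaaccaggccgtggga

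Calcium channel genes changed in both directions. Of 26 tested, 3 were higher (11.5%) and 4 lower (15.4%), against 3.34% and 4.35% of all genes. Beside Cacna1h and Cacng7, the channel beta subunit gene Cacnb1 was at least 12.2-fold higher (adjusted p = 0.000806), while Cacna1d, a pore subunit of L-type channels, was at least 5.8-fold lower (adjusted p = 0.000908) and Itpr2, a calcium release channel of the endoplasmic reticulum, 2.4-fold lower (adjusted p = 0.0111). The 3 higher genes were called without each of the 4 arrays in turn. Of 12 RGS genes, regulators that end G protein signals, 2 were higher (16.7%) and 3 lower (25%). Rgs16 was at least 15.1-fold lower (adjusted p = 0.00696) and Rgs2 3.48-fold lower (adjusted p = 0.0306), and 0 of the 5 RGS calls remained without clone 18 replicate 1 or without replicate 2.

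Of 23 pro-apoptotic genes 2 were higher and 2 lower (17.4% called), and of 16 anti-apoptotic genes 2 were higher and 0 lower (12.5%), against 7.69% of all genes. Of the 2 higher anti-apoptotic genes, 1 was above background in neither line. Bcl2l11, the gene of the cell death activator Bim, read 2.09 and 2.52 in clone 18, against -1.02 and 0.32 in untransfected cells (6.31-fold higher, adjusted p = 0.0127), and its second probe was called too. The call ended without clone 18 replicate 1 or 2 (adjusted p 0.0708 and 0.0899). Bcl2 (0.06, adjusted p = 0.947), Mcl1 (0.36, adjusted p = 0.341), Bcl2l1 (saturated on 3 of the 4 arrays) and Hax1 (-0.10, adjusted p = 0.76) were not called. The sign for Bcl2 turned under 4 alternatives of scaling, background correction or value table and so carries no direction.

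Of 33 clustered histone genes, 4 were higher (12.1%) and 0 lower. The linker histone gene Hist1h1a (H1f1) was 8.31-fold higher (adjusted p = 0.00335) and Hist1h1b (H1f5) 2.61-fold (adjusted p = 0.0101). Among 36 cell cycle and replication genes, Spdya and the kinase inhibitor gene Cdkn2c (6.02-fold, adjusted p = 0.000794) were higher and 0 lower (5.56%, against 7.69% of all genes). Of 48 actin and motility genes, 1 was higher (2.08%) and 4 were lower (8.33%), against 3.34% and 4.35% of all genes. The higher one was the actin-binding thymosin gene Tmsb10 (3.41-fold, adjusted p = 0.00231). Nedd9 and the guanine exchange factor gene Dock10 were among the lower ones. The Dock10 call (adjusted p = 0.047) was lost without any single one of the 4 arrays (adjusted p 0.0854 to 0.223).

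**Figure D4:**
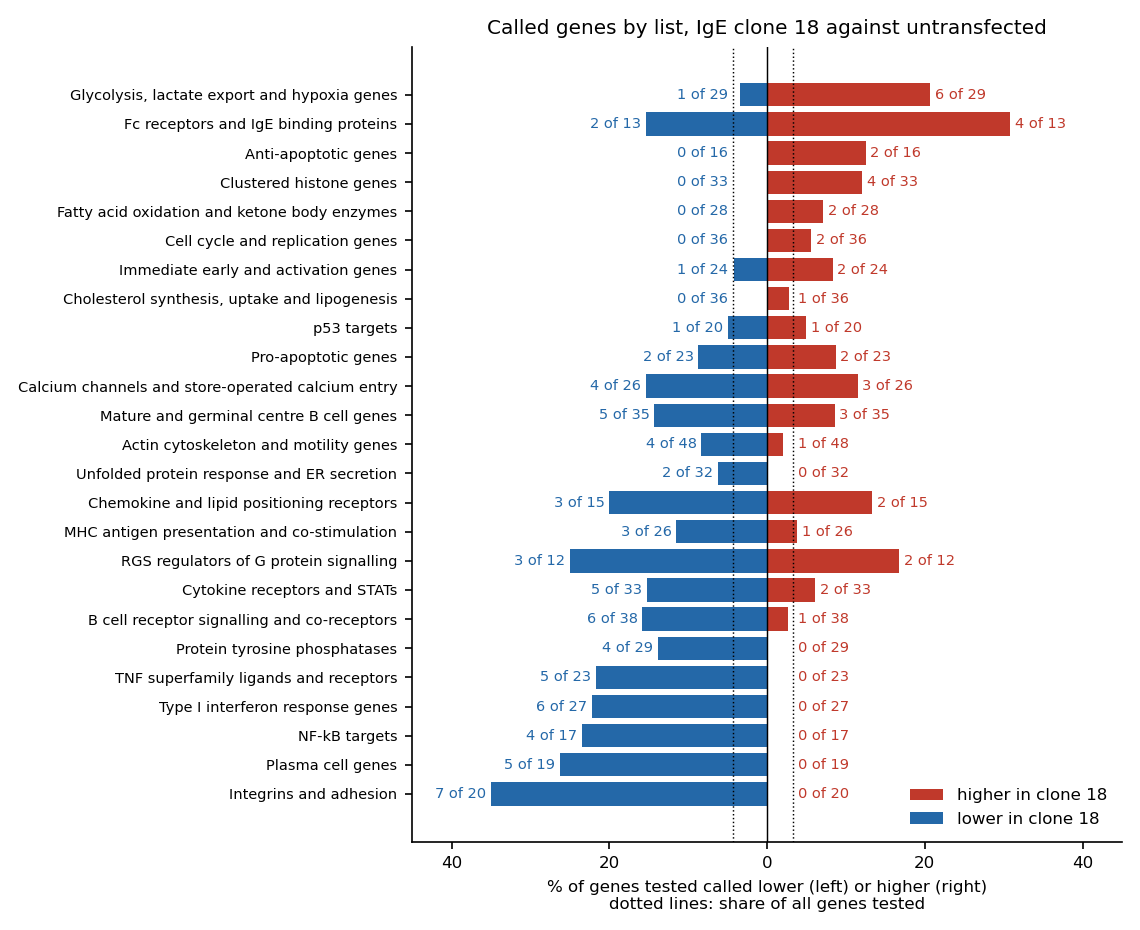
Share of tested genes called higher (red, right) or lower (blue, left) in clone 18 against untransfected cells for 25 gene lists with at least 10 genes tested, with the counts; dotted lines mark the shares over all genes, 3.34% higher and 4.35% lower. Fc receptors (30.8%) and glycolysis and hypoxia genes (20.7%) lie far out on the higher side, and integrins (35%) and plasma cell genes (26.3%) on the lower side with 0 higher.

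Some changed genes lay together on chromosomes. A running median over 31 neighbouring genes passed 0.5 or -0.5 on the log2 scale in 7 stretches. These held 560 of the 19973 genes tested and 124 of the 1536 called genes (8.07% of the called genes). The shares over all genes were 3.34% higher and 4.35% lower. The stretches were drawn from these same differences, so raised shares within them are built in. The longest lay on chromosome 1 (mm9, 160641903 to 179920575). Of its 172 genes, 45 were higher (26.2%) and 5 lower (2.91%), with a median of 0.66. The untransfected arrays differed there by a median of -0.10. Creg1, a secreted glycoprotein, read 5.83 and 5.96 in clone 18, against 2.34 and 3.14 in untransfected cells (log2 difference 3.15 ± 0.26, adjusted p = 0.000972), and the innate DNA sensor Aim2 was 1.59 ± 0.16 higher (adjusted p = 0.00241). 1700009P17Rik lies in the same stretch. Genes of these stretches named here, other than members of the lists, were chosen after their values were seen.

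The same stretch holds 4 genes of receptors for the Fc part of antibodies. Of 13 tested genes of Fc receptors and IgE binding proteins, 4 were higher (30.8%) and 2 lower (15.4%), against 3.34% and 4.35% of all genes. The 4 higher ones, Fcgr2b, Fcgr3, Fcgr4 and Fcrla, all lay in this stretch. Fcrla, an Fc receptor-like protein inside B cells, was 4.29-fold higher (adjusted p = 0.0133, and 0.0868 and 0.0901 without clone 18 replicate 1 or 2), Fcgr3 2.59-fold (adjusted p = 0.00336) and Fcgr4, not above background in untransfected cells, at least 5.68-fold (adjusted p = 0.000336). Fcgr2b and Fcgr3 are similar in sequence, and their probes may share signal. Off this stretch, Fcer2a, the low-affinity IgE receptor CD23 of B cells, was 6.85-fold lower than in untransfected cells (adjusted p = 0.0347). It read -2.26 and -3.16 in clone 18 and -1.82 and -2.51 in IgM cells, against 0.85 and -0.70 in untransfected cells. It lost its call without untransfected replicate 1 (adjusted p = 0.0577) and without clone 18 replicate 1 or 2 (adjusted p 0.107 and 0.173).

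On chromosome 6 a stretch from 31115484 to 47915961 had 26 of 106 genes higher (24.5%) and 0 lower, against 3.34% and 4.35% of all genes. A second stretch, from 122514113 to 126826304, had 16 of 66 higher (24.2%) and 2 lower. The second holds Tpi1, Eno2 and Lpar5, a receptor for lysophosphatidic acid that was at least 4.03-fold higher (adjusted p = 0.000739). Between them, from 47970096 to 51413361, 7 of 44 genes were lower and 0 higher. They included 6 Gimap genes, which encode GTPases of lymphocytes: Gimap8 read -4.20 and -4.12 in clone 18, against 0.23 and 0.28 in untransfected cells (log2 difference -4.41 ± 0.27, adjusted p = 0.000297), and Gimap1 was 2.05 ± 0.16 lower on that scale (adjusted p = 0.000733). On chromosome 19, from 39127031 to 44909954, 9 of 61 genes were lower and 0 higher, led by the axon guidance gene Slit1 (-4.74 ± 0.23, adjusted p = 0.00011). The other 2 stretches lay at the immunoglobulin heavy chain region of chromosome 12 (8 of 67 higher, 1 lower) and the MHC region of chromosome 17 (4 of 44 lower, 1 higher). Whether DNA copy number moved with these stretches was not tested.

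**Figure D5:**
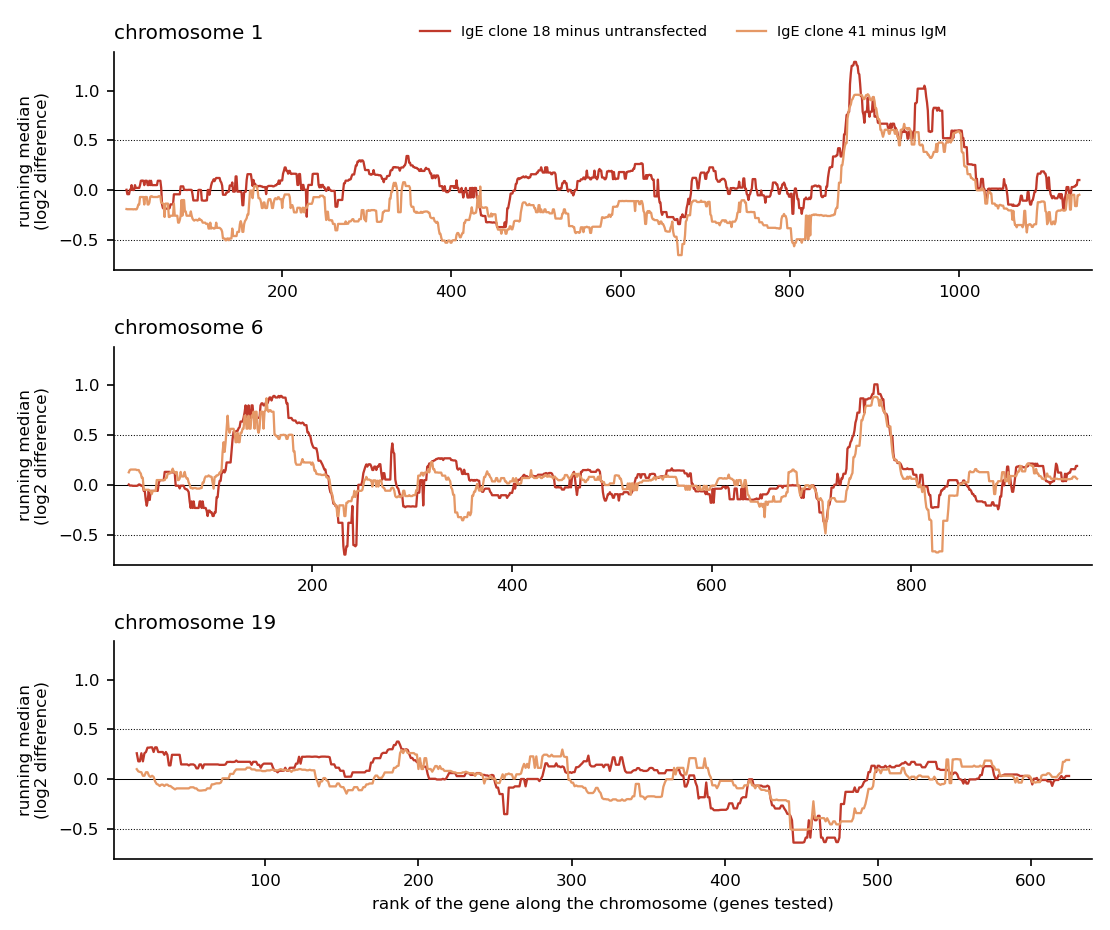
Running median of the log2 difference over 31 neighbouring genes along chromosomes 1, 6 and 19, by rank of the gene, for clone 18 minus untransfected cells (red) and for clone 41 minus IgM cells (orange), which share no array. Dotted lines mark 0.5 and -0.5. Both curves rise in the chromosome 1 stretch and in the 2 higher stretches of chromosome 6 and dip on chromosome 19.

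Clone 41 and IgM cells share no array with this comparison, although all 8 arrays lie on 1 slide and share 1 estimate of the spread. Between them 1476 genes were called (7.39% of those tested), 2.66% higher and 4.73% lower. Of the 1536 genes called in clone 18 against untransfected cells, 710 were called the same way in clone 41 against IgM cells, 250 higher and 460 lower, which is 46.2% of the first list and 48.1% of the second. Called in opposite directions were 22. Of the 355 large changes, 244 (68.7%) were called the same way. Slc16a3 differed there by 6.74 (adjusted p = 0.00159), Decr1 by 9.35 (adjusted p = 3.82e-05), Ptpn7 by -5.64 (adjusted p = 3.61e-05) and Cblc by -5.40 (adjusted p = 7.95e-05). The chromosome 1 stretch had a median of 0.55 in clone 41 against IgM cells, with 25 genes higher and 8 lower, and the 2 higher chromosome 6 stretches had 0.44 and 0.36. The chromosome 19 stretch had -0.51 (7 lower, 0 higher), the Gimap stretch -0.11 (4 lower, 0 higher) and the chromosome 17 stretch -0.08 (2 lower, 0 higher). The chromosome 12 stretch, higher in clone 18 than in untransfected cells, went the other way between clone 41 and IgM cells, with a median of -1.3, 28 genes lower and 1 higher. Its median in IgM cells minus untransfected cells was 2.43. Without clone 18 replicate 1 or 2 the shared count was 372 and 387.

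Some changes against untransfected cells did not pass against IgM cells. Btla read 3.27 and 3.03 in IgM cells, above clone 18, and differed by -0.43 between clone 18 and IgM cells (adjusted p = 0.486). Csf2rb differed by -0.22 between these lines (adjusted p = 0.479) and Gpr132 by -0.49 (adjusted p = 0.537). For these 3 genes, IgM cells, which had been transfected without IgE, lay with clone 18 and apart from untransfected cells. Fcer2a differed by -0.54 between clone 18 and IgM cells (adjusted p = 0.61). Between IgM and untransfected cells it differed by -2.23, which did not pass (adjusted p = 0.145).

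A direct comparison of clone 18 with clone 41 called 71 genes, 36 higher and 35 lower (0.355% of those tested). Of these, 48 were also called in the same direction between clone 18 and untransfected cells, 19 higher and 29 lower, and 36 of the 48 have a symbol. With the brighter line above the 75th percentile, 12 remained, 3 higher and 9 lower in clone 18. Erdr1, a transcript from the tip of the sex chromosomes, read -0.67 and -1.16 in clone 18, and 6.69 and 6.87, saturated, in untransfected cells, so it was at least 208-fold lower than there (adjusted p = 1.51e-05). Clone 41 (7.20 and 7.10) and IgM cells (6.82 and 6.92) read like untransfected cells. Mid1, which neighbours Erdr1 at the end of chromosome X in RefSeq, was not above background in clone 18 (-6.92 and -6.75) and read -4.03 and -3.91 in untransfected cells. The bound for Mid1 is thus only 1.71-fold lower. Its call ended with normexp background correction and in the authors' deposited table. Cd99 read -2.13 and -2.78 in clone 18, against 3.48 and 3.90 in untransfected cells, and 3.89 and 3.94 in clone 41.

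Rhox5, a homeobox gene of the X-linked Rhox cluster, read 3.14 and 3.44 in clone 18, against 6.72 and 6.42 in untransfected cells (9.73-fold lower, adjusted p = 0.000604), while Rhox2h of the same cluster was higher. Ppp2r2c read 0.96 and 0.76 in clone 18, against -6.59 and -6.81 in clone 41, -6.79 and -6.96 in IgM cells and -3.51 and -2.94 in untransfected cells. Stat5b read 4.22 and 4.35 in clone 18, against 2.59 and 2.66 in clone 41 and 2.49 and 2.66 in untransfected cells. Lax1, an adaptor that restrains lymphocyte receptor signals, was at least 34.3-fold lower than in untransfected cells (adjusted p = 8.02e-05), and Tyro3, a receptor kinase, 2.77-fold lower (adjusted p = 0.00402). Dlg5, a scaffold of cell junctions, was 8.95-fold lower (adjusted p = 0.000327) and Parm1, a membrane glycoprotein, 6.54-fold lower (adjusted p = 0.00276). Dlg5 was lower still in IgM cells, where it was not above background (-6.79 and -6.99), and read 0.26 and 0.25 in clone 41. Lax1 was also lower in clone 41 than in untransfected cells (log2 difference -2.93, adjusted p = 0.0013). Gstk1, a mitochondrial glutathione transferase chosen after its values were seen, read -1.14 and -0.74 in clone 18 and was not above background on any other array, so it was at least 14.8-fold higher than in untransfected cells (adjusted p = 2.21e-05).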

How the data were processed

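RNA of 4 A20 lines was measured on 8 single-colour Agilent arrays (design 028005, probes placed on mm9), with 2 arrays per line. The deposited intensity values are the processed signals of Agilent Feature Extraction 10.7.3.1, background-subtracted and detrended within each array per the file headers, and not normalized between arrays. The deposited log2 values of the authors' own table served as an alternative; their normalization is not given in the sources used here.

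Control spots and outlier-flagged spots were left out, and signals were divided by the array's 75th percentile and put on the log2 scale. Probes were kept if some line had both its arrays well above background (29140 of 55681). Of several probes to a gene, the one brightest on average over the 8 arrays was used. limma 3.58.1 (R 4.3.3) fitted 1 mean per line over all 8 arrays, with 4 residual and 2.66 prior degrees of freedom, and Benjamini-Hochberg adjustment over 19973 genes. A call needed an adjusted p under 0.05 and at least 2-fold. Where a line was not well above background, the fold is a bound against the array's lowest signal above background, or the gene's own signal if that is higher. All adjusted p-values in the text come from limma. The number of arrays limits the precision. The fit was tested on simulated data.

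Named genes are the 12 higher and 12 lower with the largest smallest difference between a clone 18 and an untransfected array among genes well above background and not saturated on all 4 arrays, up to 6 bounds per direction, the 6 large changes with the largest untransfected gap, called members of the gene lists, and fixed B cell genes. Members of lists, stretches and the comparison with clone 41 named beyond that rule were chosen after their values were seen. The lists and members were chosen with earlier results of these data known. A few genes that the rule names are not reported here. Same-numbered arrays did not deviate together (correlation of replicate differences between clone 18 and untransfected cells -0.06 over 17358 genes), so the numbers pair nothing. Alternatives changed the scaling, background correction, value table, filter, probe choice, outlier spots, prior, arrays fitted, spread per line, threshold and replicate block, or left out 1 array. Promoter windows and current gene names come from RefSeq (GRCm38.p6).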

Additional observations from a re-analysis of the deposited data

Results flagged for a closer look

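The difference between clone 18 and clone 41, the 2 IgE transfectants, passed limma's test of that difference itself for the genes below, which also differed between clone 18 and untransfected cells. Values are log2 differences, clone 18 minus clone 41, with adjusted p. Lower in clone 18 were Erdr1 (-8.07, adjusted p = 5.72e-05), Cd99 (-6.37, adjusted p = 0.000158), Rhox5 (-2.73, adjusted p = 0.00902), Dlg5 (-2.48, adjusted p = 0.00518), Parm1 (-2.2, adjusted p = 0.0463), Il2rg (-2.12, adjusted p = 0.0454), Cblc (-1.84, adjusted p = 0.0459) and Tyro3 (-1.49, adjusted p = 0.0285). Lax1 (-2.66, adjusted p = 0.011) and Mid1 (-2.42, adjusted p = 0.0131) were not above background in clone 18, so their sizes are fitted values and no bounds. Higher in clone 18 were Ppp2r2c (7.56, adjusted p = 5.72e-05), Gstk1 (5.88, adjusted p = 5.72e-05), Rhox2h (5.57, adjusted p = 0.0171) and Stat5b (1.66, adjusted p = 0.012). Clone 41 was not above background for Ppp2r2c and Gstk1. With every probe as its own feature, the Il2rg and Cblc differences did not pass (adjusted p = 0.0553 each). The second Cblc probe gave -1.25 there (adjusted p = 0.125).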

How the results depend on the processing

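The 1536 calls (667 higher, 869 lower) were 960 (408 and 552) in the authors' deposited table, 848 (355 and 493) with no filter on dim probes, 980 (389 higher) with the 4 arrays fitted alone and 1001 (411 higher) with a spread per line. Lower calls numbered 574 under a stricter filter, and higher calls 1020 with every probe as its own feature. The 355 large changes were 118 with normexp background correction, 133 in the authors' deposited table and 100 under the stricter filter, and the 251 with untransfected arrays within 2-fold were 97, 104 and 76. The 1168 called genes with every difference between arrays at least 2-fold were 674, 726 and 684 in the same order. The 710 genes shared with clone 41 against IgM cells were 429 in the authors' deposited table, 414 without a filter and 467 under the stricter one. The 71 genes differing between clone 18 and clone 41 were 344 with scaling to the median, 42 with normexp, 17 in the authors' deposited table, 31 without a filter, 15 under the stricter filter and 131 with a spread per line. The causes of these moves were not tested. Leaving out 1 of the 4 arrays gave 580 to 2539 calls, 215 to 1108 higher and 365 to 1431 lower, 286 to 430 large changes, 372 to 957 shared genes, and 30 to 106 genes between the IgE clones. The replicate number as a block gave 1562 calls (699 higher, 863 lower), of which 1423 were among the 1536; the samples share only a number. The line left with 1 array in such a fit is assumed to vary like the others.

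Of the called genes named here, 70 kept their call in all 17 alternatives that could test them and 41 lost it in at least 1, and 0 reversed. The call was lost by 38 without clone 18 replicate 1, 35 without clone 18 replicate 2, 3 without untransfected replicate 1, 5 without untransfected replicate 2, 24 without a filter, 14 with 4 arrays alone, 10 in the authors' deposited table, 10 with a spread per line and 6 with normexp. With the replicate block, 1 lost it, Inhbe. The sign turned only in genes that were not called. Bcl2 read -0.0199 with quantile normalization, -0.0106 with scaling to the median, -0.022 with normexp and -0.0756 in the authors' deposited table, and ran from -0.68 to 0.79 when 1 array was left out. Quantile normalization gave -0.0046 for Bcl2l1 and -0.0056 for Bcl6. The authors' deposited table gave -0.21 for Bcl6, -0.0253 for Prdm1 and -0.0372 for Itgb1, and normexp gave -0.0577 for Itgb1. With 1 array left out, Prdm1 ran from -1.16 to 1.36, Sdc1 ran from -1.15 to 0.0743, Itgb1 ran from -0.0575 to 0.24, Itgal ran from -0.27 to 0.56, Isg15 ran from -0.74 to 0.18, Vegfa ran from -1.59 to 0.71 and Hax1 ran from -0.27 to 0.0779. Signals near background or saturation limit sizes to bounds.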
